A study of Mus musculus with 30 samples.

Results

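The 10 genes described here are the cadherin genes Cdh1, Cdh2 and Cdh3, the epithelial adhesion gene Epcam, and the transcription factor genes Grhl2, Zeb1, Zeb2, Snai1, Snai2 and Twist1. They were taken by gene symbol from a table of 25400 genes, and all 10 were among the 16582 genes with enough reads to be tested. Poly(A) RNA-seq was run on neuronal progenitor cells (NPCs) differentiated in vitro from mouse embryonic stem cells, in 24 libraries, 3 from each of 8 lines. The question put to these lines is which domains of MBD3 and MBD2, paralogous subunits of the NuRD chromatin remodelling complex that each carry a methyl-CpG binding domain (MBD), can stand in for MBD3 during differentiation. One line is wild type (WT), one carries the Mbd3 knockout (Mbd3 KO), and the other 6 carry the knockout together with a construct inserted at a recombination site, where the strong CAG promoter drove it. The constructs are Mbd3a (line MBD3a), Mbd3a_delMBD without the MBD (MBD3ΔMBD), Mbd2a (MBD2a), Mbd2a_delGR without the glycine-arginine stretch (MBD2aΔGR), Mbd2a_R181C with a point mutation (MBD2aR181C), and Mbd2t, the truncated isoform (MBD2t). Other sources of the study number the point mutation differently, and the line was identified as the only point mutant of MBD2a. All lines derive from mixed 129 and C57BL/6 stem cells, and the libraries of a line came from individually derived clones, except that those of MBD2t are repeats of a single clone, whose spread holds no difference between clones. The tests pool the spread over all lines, so that p-values for MBD2t assume that it varies like the others.

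Classical cadherins are the adhesion receptors of adherens junctions, and cells bind best to neighbours with the same type. When the neural plate forms from embryonic ectoderm, cells give up E-cadherin (Cdh1) and take on N-cadherin (Cdh2), a change called the cadherin switch that is also part of the epithelial-mesenchymal transition (EMT). ZEB, SNAIL and TWIST factors are known repressors of epithelial genes, GRHL2 is an activator of them, and the microRNAs of the miR-200 family are known to silence Zeb1 and Zeb2 in epithelial cells.

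Zeb1 and Zeb2 share a sequence feature that sets them apart from the other genes here. The 5 mature microRNAs of the miR-200 family are shown because their seeds (bases 2 to 8, in capitals, from RefSeq on GRCm38.p6) fall into 2 groups that differ by a single base.
mmu-miR-200b-3p: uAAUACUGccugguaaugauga
mmu-miR-200c-3p: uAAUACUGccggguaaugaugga
mmu-miR-429-3p: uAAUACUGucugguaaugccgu
mmu-miR-200a-3p: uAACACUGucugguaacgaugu
mmu-miR-141-3p: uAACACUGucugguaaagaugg
The sites that pair with these seeds, CAGTATT and CAGTGTT on the transcript strand, were counted in the longest annotated 3′ UTR of each of 19915 genes. Zeb1 held 5 and 4 of them in 2401 bases, and Zeb2 held 5 and 4 in 4939 bases. Among all genes searched, only these 2 had as many as 9. Snai2 had 2, Grhl2 and Snai1 had 1 each, and Cdh1, Cdh2, Cdh3, Epcam and Twist1 had 0. The first 4 sites behind the stop codon of Zeb2 are printed with the site in capitals (minus strand of chromosome 2, NCBIM37).
Zeb2 site 1, chr2:44843877-44843898: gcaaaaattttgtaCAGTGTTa
Zeb2 site 2, chr2:44843693-44843714: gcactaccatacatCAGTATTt
Zeb2 site 3, chr2:44843628-44843649: gcactacagtgcatCAGTATTa
Zeb2 site 4, chr2:44843345-44843366: gtgccatccttgtaCAGTGTTc
A match is a description of the letters and not a measured site. Poly(A) libraries do not measure mature microRNAs, and the rows of the 5 microRNA genes held at most 6 reads in any library.

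The second sequence shown is the motif that SNAIL and ZEB factors are known to bind, CACCTG on either strand. RefSeq promoters (GRCm38.p6) of 4 of the 10 genes, Epcam, Snai1, Twist1 and Zeb2, were searched over the 250 bases before each transcript start. Promoters of the other genes among the 10 are not described here, so their matches are not known from this search. Among all 32851 promoters, 17.2% held the motif. The Epcam promoter held 2, at 187 and 19 bases before the start, and the Snai1 promoter held 1, 126 bases before it, while Twist1 and the 4 starts of Zeb2 held 0 in these windows. The motif of the GRHL family, AACCNGTT on either strand, was in 1.79% of all promoters and in 0 of those described for the 4 genes. The promoters with a match are printed with CACCTG or its reverse complement in capitals, both on the plus strand.
Epcam, chr17:87635729-87635978: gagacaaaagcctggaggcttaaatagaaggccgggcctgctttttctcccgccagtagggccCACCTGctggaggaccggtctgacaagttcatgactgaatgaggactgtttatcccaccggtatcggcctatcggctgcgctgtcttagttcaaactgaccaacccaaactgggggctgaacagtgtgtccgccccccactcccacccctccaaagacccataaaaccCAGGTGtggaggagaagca
Snai1, chr2:167537945-167538194: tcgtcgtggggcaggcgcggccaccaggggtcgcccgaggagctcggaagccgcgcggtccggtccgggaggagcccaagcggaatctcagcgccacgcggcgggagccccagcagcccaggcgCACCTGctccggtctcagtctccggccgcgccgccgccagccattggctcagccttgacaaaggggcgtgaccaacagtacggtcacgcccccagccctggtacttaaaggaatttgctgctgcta

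Libraries held between 27993858 and 49392806 counted reads (median 36797095), so that 3 reads correspond to between 0.0607 and 0.107 CPM (read counts scaled to a common library size, by TMM), a floor that covers counting error only. Mbd3, the targeted gene, had 155, 149 and 157 CPM in WT and 34.2, 73.8 and 69.1 CPM in Mbd3 KO, where reads on the gene thus remained, a log2 fold change of -1.38 ± 0.27 (standard error, n = 3 per line, adjusted p = 0.000283, edgeR's quasi-likelihood test with Benjamini-Hochberg adjustment). Reads on Mbd2 ranged from 280 to 700 CPM in MBD2aΔGR, from 253 to 325 CPM in MBD2aR181C and from 335 to 356 CPM in MBD2t, against 64.2 to 70.9 CPM in Mbd3 KO. In MBD2a they ranged from 67.0 to 87.2 CPM, and the log2 fold change of 0.26 ± 0.21 against Mbd3 KO was not called (adjusted p = 0.508, edgeR). The MBD2a line thus differed from the other MBD2 lines in reads on Mbd2 as well as in the construct. For protein, the study reported equal levels of MBD2a and MBD2aΔGR on Western blots of the stem cell lines, a stage not measured here. Library s18 of MBD2aΔGR stood apart, with 3352 CPM summed over 7 markers of primitive and parietal endoderm where the other libraries of that line had 282 and 380 CPM. Library s15 of MBD2a differed by over 1 log2 unit from the mean of its line's other libraries for 6 of the 10 genes, and s04 of Mbd3 KO, s09 of MBD3a and s18 did so for 4 each. All 24 libraries were fitted together, and a gene counted as called when it changed by more than 1 log2 unit with an adjusted p under 0.05.

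In Mbd3 KO NPCs, Cdh1, Cdh3, Epcam, Grhl2 and Snai1 rose and Cdh2, Zeb1, Zeb2 and Twist1 fell. These 9 of 10 genes were called, where 33.8% of all genes tested were (19.6% higher and 14.2% lower). The libraries of the lines did not overlap for 9 of the 10 genes and for 62.2% of all genes. Snai2 was the gene not called.

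Cdh1 (chromosome 8, 109127251 to 109194146, plus strand, mm9) encodes E-cadherin, which joins epithelial cells and early embryonic cells. It had 56.2, 138 and 107 CPM in WT and 820, 574 and 535 CPM in Mbd3 KO, and the lowest KO library lay far above the highest WT library. The log2 fold change was 2.68 ± 0.39 (95% interval 1.86 to 3.49, adjusted p = 1.32e-05, edgeR), a 6.41-fold rise. Since these are bulk libraries, fewer cells of a type and less RNA per cell cannot be told apart, here and in all that follows.
Cdh2 (chromosome 18, 16747386 to 16967755, minus strand) encodes N-cadherin, the main classical cadherin of neural progenitors. It moved the opposite way, from 347, 315 and 208 CPM in WT to 6.49, 47.7 and 46.0 CPM in Mbd3 KO. Its log2 fold change was -3.11 ± 0.57 (95% interval -4.32 to -1.91, adjusted p = 0.00014, edgeR). Library s04 held the lowest level of all 24 libraries, and without it the change was -2.63 and still called.
Cdh3 encodes P-cadherin, found in placenta and basal epithelia, and lies 46442 bases before Cdh1 on the same strand (chromosome 8, 109034791 to 109080808). Its levels were 12.9, 30.2 and 16.7 CPM in WT and 174, 213 and 249 CPM in Mbd3 KO, without overlap. It rose by 3.41 ± 0.37 on the log2 scale (adjusted p = 7.09e-07, edgeR), which is 10.6-fold. This was the largest rise among the 10 genes, though whether it exceeded that of Cdh1 was not tested.

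Compared per length, as CPM per kilobase of exon (RPKM), WT NPCs held less Cdh1 than Cdh2 in each of the 3 libraries. The ratio of the Cdh1 to the Cdh2 level was 0.286, 0.772 and 0.908 in WT. It was 223, 21.2 and 20.5 in Mbd3 KO, so that the order of the 2 cadherins was turned over in all 3 libraries. In MBD2a the ratio was 15.3, 19.8 and 120, and in MBD2t it was 44.0, 46.2 and 34.9, both far above equal levels in every library. It was 0.922, 1.72 and 3.18 in MBD2aΔGR, the highest in s18. In MBD3a, MBD3ΔMBD and MBD2aR181C it lay between 0.268 and 1.31, and 1 library of MBD2aR181C (s20, 1.31) was above equal levels.

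**Figure D1:**
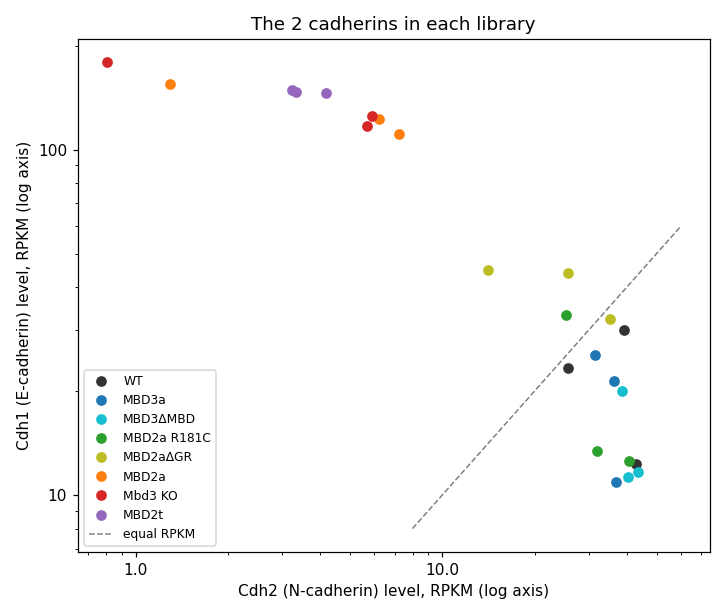
Level of Cdh1 against Cdh2 in RPKM in each of the 24 libraries, both axes logarithmic, with 1 point per library coloured by line and a dashed line at equal levels. The Mbd3 KO, MBD2a and MBD2t libraries sit at the upper left with ratios of 15.3 to 223, and MBD2aΔGR has ratios of 0.922 to 3.18. The other lines sit at the lower right with ratios of 0.268 to 1.31. The highest of these, s20 of MBD2aR181C, lies within the range of MBD2aΔGR.

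Epcam (chromosome 17, 88035319 to 88050446) encodes an epithelial cell adhesion molecule that is also present on embryonic stem cells. It rose from 22, 43.6 and 43.1 CPM in WT to 217, 205 and 207 CPM in Mbd3 KO, a log2 fold change of 2.53 ± 0.37 (adjusted p = 1.22e-05, edgeR). The KO libraries lay close together and apart from WT.
Grhl2 (chromosome 15, 37162791 to 37293324) encodes a grainyhead-like activator of epithelial genes, Cdh1 and Epcam among its known targets. It had 4.19, 9.63 and 5.23 CPM in WT and 32.8, 35.6 and 36.6 CPM in Mbd3 KO, without overlap. Per length it was the lower gene, with a mean of 1.15 RPKM in WT where Epcam had 17.8 RPKM. The log2 fold change was 2.47 ± 0.36 (adjusted p = 1.21e-05, edgeR). Gene models on the opposite strand share 169 exonic bases with Grhl2, and whether the counting used the strand is not given in the sources used here.

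The ZEB genes fell together. Zeb1 (chromosome 18, 5591858 to 5775465) had 126, 129 and 64.3 CPM in WT and 12.9, 16.2 and 13.7 CPM in Mbd3 KO, a log2 fold change of -2.90 ± 0.43 (adjusted p = 1.54e-05, edgeR). Zeb2 (chromosome 2, 44839154 to 44972915, minus strand), a factor also needed for neural development, had 123, 134 and 61.1 CPM in WT and 1.94, 4.69 and 5.24 CPM in Mbd3 KO. Its log2 fold change of -4.73 ± 0.53 (95% interval -5.84 to -3.62, adjusted p = 9.43e-07, edgeR), a 26.6-fold fall, was the largest in size among the 10 genes, whose differences from one another were not tested. It shares 458 exonic bases with the opposite-strand gene Gm13476. Per length, the mean level of Zeb1 went from 10.9 to 1.47 RPKM and that of Zeb2 from 6.91 to 0.258 RPKM.

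Twist1 (chromosome 12, 34642536 to 34644682), a helix-loop-helix factor of mesoderm and neural crest, had 18.4, 14 and 8.72 CPM in WT and 1.34, 4.65 and 3.23 CPM in Mbd3 KO. It fell by 2.13 ± 0.46 on the log2 scale (adjusted p = 0.000563, edgeR). Snai1 (chromosome 2, 167363695 to 167368314), the SNAIL gene of gastrulating mesoderm, went the other way, from 6.6, 8.39 and 5.75 CPM to 28.8, 25.2 and 32.8 CPM. The libraries did not overlap, but the spread of Snai1 over all lines was wide and its log2 fold change of 2.07 ± 0.78 passed by little (adjusted p = 0.029, edgeR). It lost the call in 4 of the 6 fits that each left out 1 of these libraries, s01, s02, s03 or s06, with an adjusted p of up to 0.0782 (edgeR) without s03.
Snai2 (chromosome 16, 14705945 to 14709488), known as Slug in neural crest, was the gene with the fewest reads, with 2.20, 2.42 and 1.75 CPM in WT and 0.400, 1.73 and 1.82 CPM in Mbd3 KO. The lines overlapped, and the log2 fold change was -0.65 ± 0.48 (95% interval -1.65 to 0.34, adjusted p = 0.243, edgeR).

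**Figure D2:**
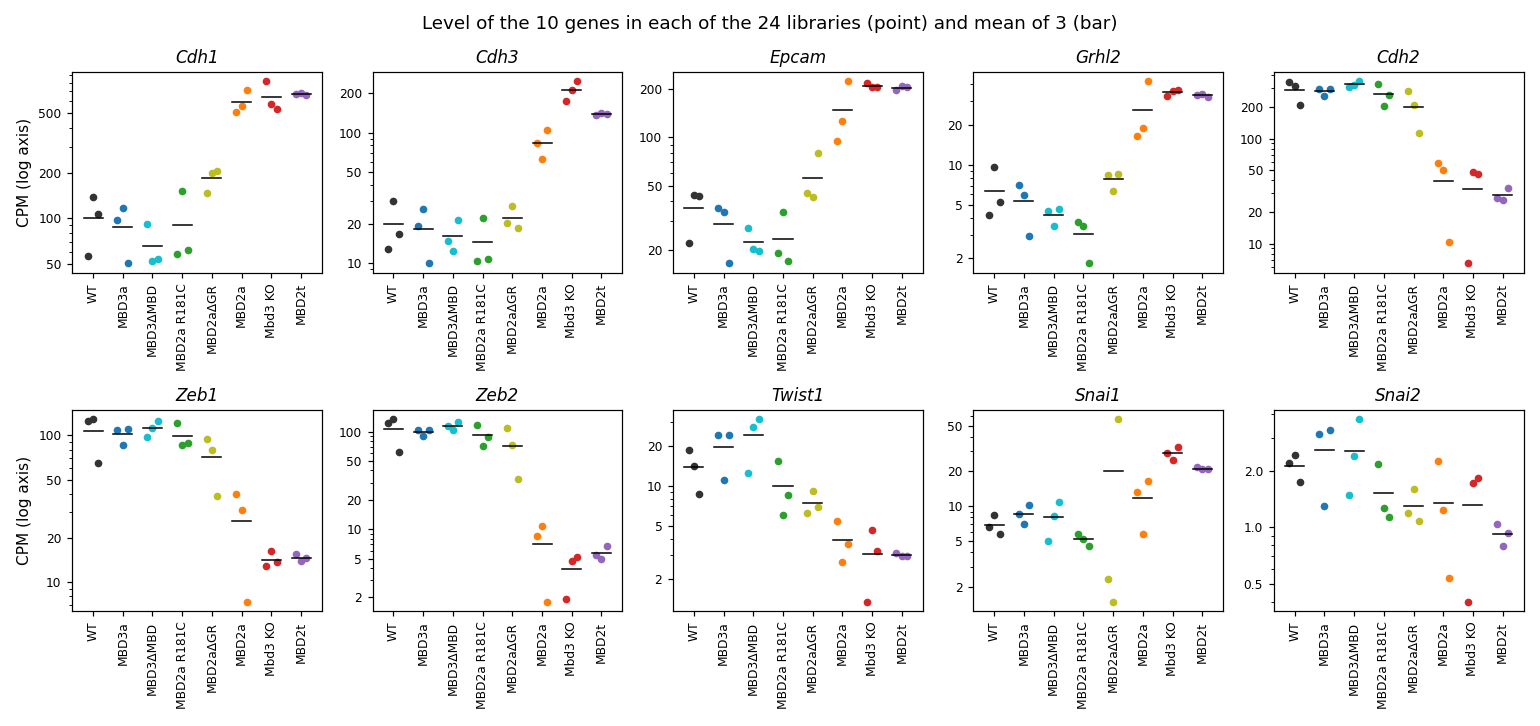
CPM of each of the 10 genes in the 24 libraries on logarithmic axes that differ between panels, with 1 point per library and a bar at the mean of the 3 libraries of a line. In the panels of Cdh1, Cdh3, Epcam, Grhl2, Cdh2, Zeb1, Zeb2 and Twist1, the means of MBD2a, Mbd3 KO and MBD2t lie on 1 side and those of WT, MBD3a, MBD3ΔMBD and MBD2aR181C on the other, with MBD2aΔGR between them or beside the latter, and the Snai1 panel shows s18 at 56.7 CPM.

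With MBD3a and with MBD3ΔMBD, 0 of the 10 genes were called against WT, as were 0% and 0.0181% of all genes tested. At an unadjusted p under 0.05, 0 of the 10 passed in either line, and DESeq2 also called 0. Cdh1 had 97.8, 117 and 50.1 CPM in MBD3a and 91.4, 51.7 and 53.5 CPM in MBD3ΔMBD, both overlapping WT. Cdh2 had 294, 255 and 297 CPM in MBD3a and 311, 325 and 352 CPM in MBD3ΔMBD. Log2 fold changes against WT ran from -0.31 (Epcam) to 0.52 (Twist1) in MBD3a and from -0.70 (Epcam) to 0.81 (Twist1) in MBD3ΔMBD. For Twist1 in MBD3ΔMBD the 95% interval was -0.05 to 1.67, so that a change of over 1 log2 unit lay within it. Between MBD3ΔMBD and MBD3a directly, 0 of the 10 and 0% of all genes were called, with 0 of the 10 at an unadjusted p under 0.05. Reads on Mbd3 ranged from 168 to 198 CPM in MBD3a and from 423 to 496 CPM in MBD3ΔMBD, without overlap. The log2 difference of 1.27 ± 0.27 was not called (adjusted p = 0.392, edgeR). These lines thus differed in reads on Mbd3 as well as in the construct.
Against Mbd3 KO, 8 of the 10 genes were called in MBD3a (32.4% of all genes) and 9 in MBD3ΔMBD (35.9%), all opposite in direction to the change of the KO against WT, with which these comparisons share the KO libraries. Zeb2 was higher by 4.64 ± 0.53 log2 units with MBD3a and by 4.85 ± 0.53 with MBD3ΔMBD (adjusted p of 1.43e-06 and 5.91e-07 by edgeR). Snai1 was lower by -1.75 ± 0.78 in MBD3a, which missed the threshold (adjusted p = 0.0614, edgeR), and by -1.83 ± 0.78 in MBD3ΔMBD (adjusted p = 0.0477, edgeR), which lost its call without any 1 of the 6 libraries compared.

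In the MBD2a line, 8 of the 10 genes were called against WT, where 30.6% of all genes were: Cdh1, Cdh3, Epcam and Grhl2 higher, Cdh2, Zeb1, Zeb2 and Twist1 lower. Cdh1 had 507, 563 and 710 CPM, 2.56 ± 0.39 log2 units above WT (adjusted p = 3.21e-05, edgeR). Cdh2 had 58.4, 50.0 and 10.4 CPM, a change of -2.87 ± 0.57 (adjusted p = 0.000361, edgeR). Neither gene overlapped WT, and s15 held the highest Cdh1 and the lowest Cdh2 of the 3 libraries. The same library also held the most Grhl2 (42.5 CPM, against 16.3 and 19 CPM) and the least Zeb1 (7.36 CPM, against 39.8 and 30.9 CPM). Snai1, at 13.4, 5.74 and 16.5 CPM, changed by 0.79 ± 0.78 (adjusted p = 0.406, edgeR) and was not called.
Against Mbd3 KO, the MBD2a line differed in 1 of the 10 genes (5.25% of all genes were called). Cdh3, at 84.2, 63.1 and 106 CPM, was lower by -1.33 ± 0.34 (adjusted p = 0.0181, edgeR) and overlapped neither the KO nor the WT libraries. That call was lost without s06, s13 or s14. Zeb1 differed by 0.86 ± 0.41 (95% interval 0.00 to 1.72, adjusted p = 0.219, edgeR), and without s15 by 1.30 (adjusted p = 0.00973, edgeR). In that fit 3 genes were called, Cdh3, Grhl2 and Zeb1. For Cdh1 the interval of the difference, -0.88 to 0.65, held 0.

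In MBD2t, 9 of the 10 genes were called against WT (33.4% of all genes). The list differs from that of Mbd3 KO in Snai1 and Snai2. Cdh1 had 671, 683 and 665 CPM and Cdh2 26.9, 26.1 and 33.6 CPM, which on the log2 scale was 2.75 ± 0.39 and -3.33 ± 0.58 from WT (edgeR gave an adjusted p of 1.06e-05 and 8.16e-05). Snai2, at 1.04, 0.795 and 0.930 CPM, was lower by -1.19 ± 0.49 (adjusted p = 0.0444, edgeR), a call that 5 of the 6 fits without 1 library lost. Snai1, at 21.7, 20.9 and 20.8 CPM, lay above all WT libraries but was not called (1.61 ± 0.78, adjusted p = 0.0807, edgeR).
Between MBD2t and Mbd3 KO, 0 of the 10 genes were called (0.0241% of all genes), with 0 at an unadjusted p under 0.05 and 0 with DESeq2. The log2 differences ran from -0.61 (Cdh3, 95% interval -1.31 to 0.10) to 0.52 (Zeb2, -0.54 to 1.58). Between MBD2a and MBD2t, 0 were called (4% of all genes) by either tool and 1, Cdh3, had an unadjusted p under 0.05 (difference of -0.72 ± 0.34, adjusted p = 0.236, edgeR).

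The 2 mutants of MBD2a gave other values. In MBD2aR181C, 0 of the 10 genes were called against WT (0.0181% of all genes), 1 had an unadjusted p under 0.05, and DESeq2 called 0. Cdh1 had 57.4, 152 and 61.4 CPM and Cdh2 329, 204 and 257 CPM, and both overlapped WT. The gene with an unadjusted p under 0.05 was Grhl2, at 3.72, 3.49 and 1.83 CPM below every WT library, with a log2 fold change of -1.06 ± 0.38 (95% interval -1.86 to -0.27, adjusted p = 0.999, edgeR). MBD2a and MBD2aR181C differed in 8 of the 10 genes (27.3% of all genes). Of these, Twist1 lost its call without s14, s15 or s19. In MBD2a, Grhl2 was higher by 3.10 ± 0.38, Cdh1 by 2.72 ± 0.39 and Epcam by 2.66 ± 0.37 (adjusted p = 5.71e-06, 2.49e-05 and 1.8e-05, edgeR). Zeb2 was lower by -3.73 ± 0.50 and Cdh2 by -2.74 ± 0.57 (adjusted p = 1.41e-05 and 0.000647, edgeR).

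In MBD2aΔGR, 0 of the 10 genes were called against WT, where 5.16% of all genes were, and DESeq2 called 0. Cdh1, at 148, 201 and 205 CPM, lay above all WT libraries with a log2 fold change of 0.88 ± 0.37 (95% interval 0.11 to 1.66) that missed the threshold (adjusted p = 0.134, edgeR). It was the gene with an unadjusted p under 0.05 in this comparison. Epcam, at 45.0, 42.4 and 80.5 CPM, changed by 0.63 ± 0.35 and overlapped WT (adjusted p = 0.262, edgeR).
The levels of Cdh2, Zeb1 and Zeb2 were uneven across the libraries of the line. Cdh2 had 284, 207 and 114 CPM, Zeb1 94.5, 79.0 and 38.4 CPM, and Zeb2 109, 72.3 and 32.7 CPM, and for each the lowest was s18, below every WT library. Their differences from WT, -0.53 ± 0.53, -0.59 ± 0.40 and -0.58 ± 0.44 on the log2 scale, were not called (edgeR, adjusted p = 0.561, 0.36 and 0.426).
Snai1 turned on s18 alone. It had 2.33 and 1.49 CPM in s16 and s17, below all WT libraries, and 56.7 CPM in s18, the highest level of the gene in any of the 24 libraries. With all 3 libraries the difference from WT was 1.55 ± 0.78 (adjusted p = 0.211, edgeR). Without s18 it was -1.85 (adjusted p = 0.0402, edgeR) and without s16 it was 2.01 (adjusted p = 0.0492, edgeR), both called in opposite directions. In s18 the markers of primitive and parietal endoderm summed to 3352 CPM, and 6 of the 7 were called higher in the line against WT, as were 2.69% of all genes. Their part in the level of Snai1 was not tested.

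MBD2a and MBD2aΔGR, which differ by the glycine-arginine stretch and in their reads on Mbd2, differed in 7 of the 10 genes (18.6% of all genes). In MBD2a, Cdh1 was higher by 1.68 ± 0.38, Cdh3 by 1.93 ± 0.35, Epcam by 1.41 ± 0.35 and Grhl2 by 1.74 ± 0.35 (adjusted p = 0.00216, 0.000501, 0.00472 and 0.001, edgeR). Cdh2 was lower by -2.35 ± 0.56, Zeb1 by -1.44 ± 0.41 and Zeb2 by -3.36 ± 0.50 (adjusted p = 0.00333, 0.0101 and 8.53e-05, edgeR). Twist1 was not called (-0.94 ± 0.46, adjusted p = 0.12, edgeR). In a fit of these 6 libraries only, 4 genes were called, Cdh1, Cdh3, Grhl2 and Zeb2. Leaving out s15 took Epcam and Zeb1 just under the fold threshold (0.99 and -0.99), and leaving out s16 cost Zeb1 its call (-1.15, adjusted p = 0.0682, edgeR).
MBD2aΔGR and MBD2aR181C did not differ in any of the 10 genes by edgeR (2.35% of all genes were called), although 4 had an unadjusted p under 0.05. Epcam was higher in MBD2aΔGR by 1.26 ± 0.36 and Grhl2 by 1.36 ± 0.38 (adjusted p = 0.0606 and 0.0572, edgeR), and DESeq2 called both. Against Mbd3 KO, 8 of the 10 were called in MBD2aΔGR (25.2% of all genes) and 9 in MBD2aR181C (31.1%), again with the KO libraries shared. Among them, Twist1 lost its call in MBD2aΔGR in 4 of the 6 fits without 1 library (s04, s06, s16 or s17). In MBD2aR181C it lost the call without s19. Cdh1 was lower than in the KO by -1.80 ± 0.38 in MBD2aΔGR and by -2.83 ± 0.39 in MBD2aR181C (adjusted p = 0.000726 and 9.02e-06, edgeR).

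When the lines were ordered by the level of each gene, 7 neighbouring pairs differed. They were 1 for each of Cdh1, Cdh2, Cdh3, Epcam, Grhl2, Zeb1 and Zeb2, and each lay between MBD2aΔGR and the line next to it on the side of Mbd3 KO, which was MBD2t for Zeb2 (a comparison with 25.2% of all genes called) and MBD2a for the others. For Snai1, Snai2 and Twist1, neighbouring lines did not differ beyond their spread.

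**Figure D3:**
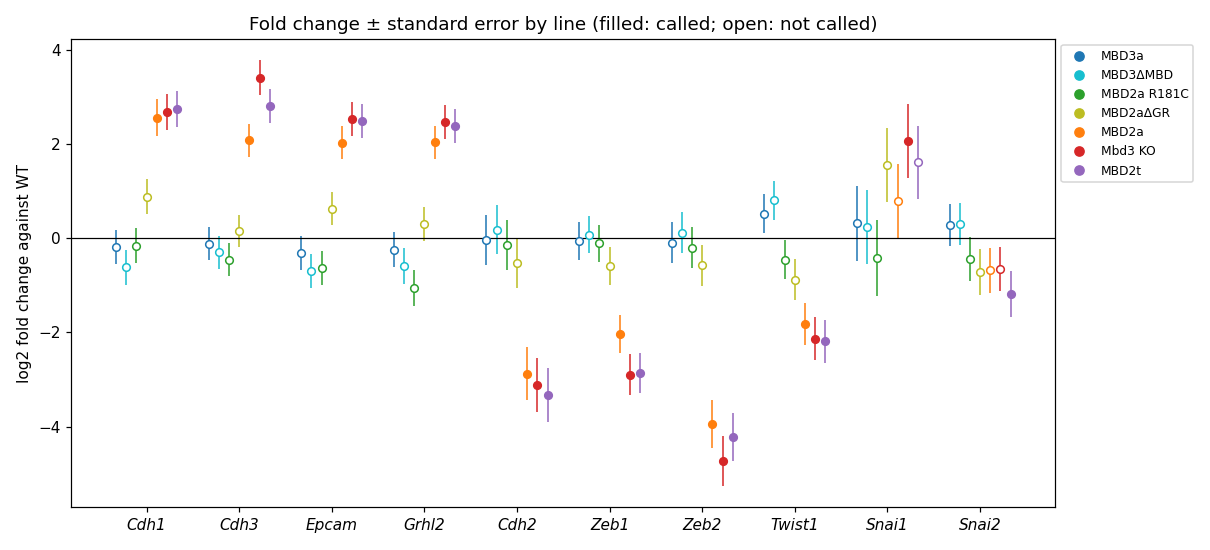
Log2 fold change of each gene against WT with its standard error in the 7 other lines (3 libraries each), filled where the gene was called and open where it was not. The points of MBD2a, Mbd3 KO and MBD2t lie away from 0 and on the same side of it for each of the first 8 genes, those of MBD3a, MBD3ΔMBD and MBD2aR181C are all open and lie between -1.06 (Grhl2 in MBD2aR181C) and 0.81 (Twist1 in MBD3ΔMBD), and the error bars of Snai1 are the widest.

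Other genes of the same programmes were followed with lists taken from textbook knowledge. The lists were chosen with earlier results of these data known, so their counts describe these data and are not an independent test. The epithelial programme holds 40 genes of tight junctions, desmosomes, keratins and their regulators, and 38 of the 40 rose in Mbd3 KO and 0 fell, with a median log2 fold change of 2.20 against -0.03 over all genes tested. Among all genes tested, 19.6% rose and 14.2% fell. Krt7 (4.42 ± 0.69) and Krt19 (3.30 ± 0.54), keratins of simple epithelia, Pkp3 (3.89 ± 0.46), a plakophilin of desmosomes, and Grhl1 (3.23 ± 0.38), a paralogue of Grhl2, had the largest changes among genes of at least 1 log2 CPM (adjusted p = 2.77e-05, 4.51e-05, 1.82e-06 and 1.57e-06, edgeR). The 2 genes not called, Tjp1 and Tjp3 of the tight junction plaque, passed the adjusted p but stayed under the fold threshold (0.61 and 0.98).
In MBD2t, 38 genes of this list rose and in MBD2a 34 (medians 2.19 and 1.96), where 18.2% and 16.9% of all genes rose. In MBD2aR181C, MBD3a and MBD3ΔMBD 0 were called, with medians of -0.31, -0.10 and -0.42. In MBD2aΔGR, 4 of 40 rose, Ocln, Cgn, Lsr and Crb3 of cell junctions and polarity (median 0.64, 2.69% of all genes rose). The number was 0 without s18, where 0.722% of all genes were called, 0 without s01, 1 without s02 and 9 without s16. Between MBD2a and MBD2aΔGR 23 of the 40 were higher in MBD2a (10.6% of all genes), and the number was 34 without s18 and 14 without s15.

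The mesenchymal programme did not move as a block. Of 24 genes tested of 25 listed, 5 rose and 7 fell in Mbd3 KO (median -0.18), where 19.6% of all genes rose and 14.2% fell. Vim, the intermediate filament vimentin that neural progenitors also express in abundance, fell from 1054 to 70.9 CPM on average (-3.89 ± 0.46, adjusted p = 1.59e-06, edgeR). Col3a1, a fibrillar collagen, and Cdh11, the cadherin of mesenchyme, also fell (-3.34 ± 0.89 and -2.88 ± 0.64, adjusted p = 0.00343 and 0.000815, edgeR). In MBD2aΔGR, where 5.16% of all genes were called, 7 of the 24 fell and 1 rose (median -1.10). Of the same genes 3 fell and 0 rose without s18, while 4 fell without s01 and 3 rose without s16.
Of 21 other EMT factors and signalling partners, 5 rose and 7 fell in Mbd3 KO (median 0.01), beside 19.6% and 14.2% of all genes. Foxd3 (-5.20 ± 0.88) and Tfap2a (-3.32 ± 0.59), factors of the neural crest, Prrx1 (-3.51 ± 0.58), a homeobox factor of mesenchyme, and Tcf4 (-1.83 ± 0.27), a helix-loop-helix partner of TWIST factors, had the largest changes among those of at least 1 log2 CPM, and all fell (adjusted p = 6.33e-05, 9.77e-05, 5.06e-05 and 1.76e-05, edgeR). Below that level, Sox10, also a factor of the neural crest, rose by 5.83 ± 1.03, the largest change of the list, from 0.468 to 27.5 CPM on average. Snai3, also below it, rose by 3.02 ± 0.39 (adjusted p = 8.66e-05 for Sox10 and 3.61e-06 for Snai3, edgeR). Without s01, s02 or s05 the number of this list that rose was 3. Tfap2a shares 111 exonic bases with a gene on the opposite strand and Foxd3 shares 89 with a gene on its own strand.

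Of 14 other classical and related cadherins tested, 4 rose and 8 fell in Mbd3 KO (median -2.17), beside 19.6% and 14.2% of all genes. Cdh8, a cadherin of the nervous system, fell from 93.0 to 5.24 CPM on average (-4.13 ± 0.54, adjusted p = 4.62e-06, edgeR). Cdh22 and Cdh13 fell by 3.54 ± 0.41 and 2.73 ± 0.53 (adjusted p = 1.23e-06 and 0.000222, edgeR). With Cdh11, which also stands in the mesenchymal list, these had the largest changes among cadherins of the list with at least 1 log2 CPM. Below that level, Cdh15 rose by 5.17 ± 0.53 (adjusted p = 3.66e-07, edgeR), the largest change of the list. Of 12 catenins and partners, 3 rose and 3 fell (median 0.44), beside the same shares of all genes. The neuronal catenin genes Ctnna2 and Ctnnd2 fell by 4.81 ± 0.54 and 3.13 ± 0.32, while Jup, plakoglobin of desmosomes and adherens junctions, and Nectin2, an adhesion partner of cadherins, rose by 1.85 ± 0.30 and 1.5 ± 0.20 (adjusted p = 1.02e-06, 4.28e-07, 3.54e-05 and 5.89e-06, edgeR). Without s03 or s04 the number of this list that rose was 2. Cdh8 and Nectin2 share 23 and 135 exonic bases with genes on the opposite strand.

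**Figure D4:**
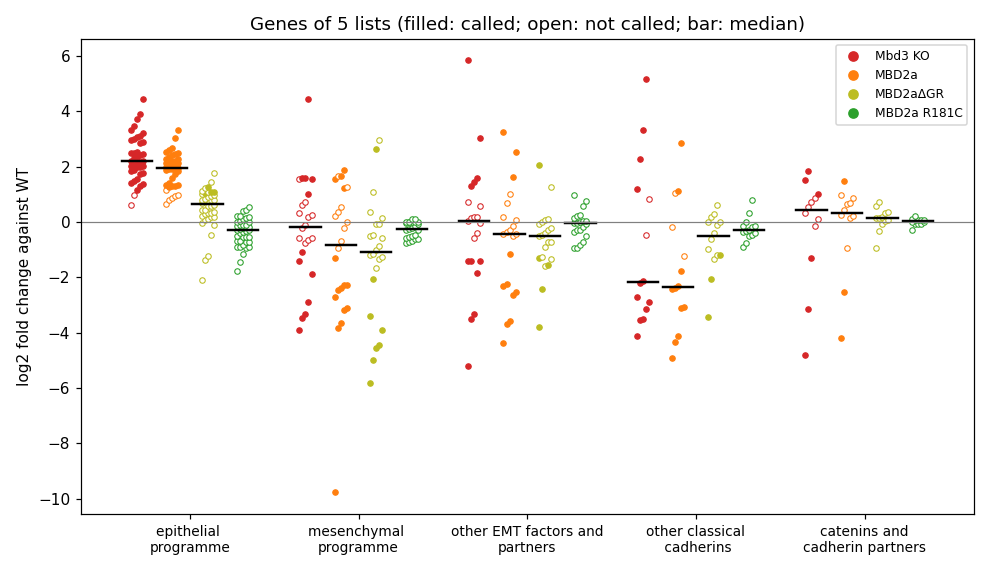
Log2 fold change against WT of each gene tested in 5 lists, for Mbd3 KO, MBD2a, MBD2aΔGR and MBD2aR181C, filled where called, with a bar at the median. The epithelial programme lies above 0 as a whole in Mbd3 KO and MBD2a (medians 2.20 and 1.96), while the other lists hold genes on both sides of 0.

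Markers of some of the cell types that such cultures can hold changed in Mbd3 KO, where 19.6% of all genes rose and 14.2% fell. All 6 neural progenitor markers measured fell in Mbd3 KO, and their sum lay between 1248 and 1420 CPM in WT and between 215 and 341 CPM in the KO, so that the KO libraries went against their label as NPCs. Hes5 and Fabp7, genes of neural progenitors and radial glia, fell from 108 and 47.6 CPM to 0.875 and 0.337 CPM on average (-6.93 ± 0.47 and -7.12 ± 0.62 on the log2 scale, edgeR, adjusted p = 5.69e-09 and 8.21e-08). Hes5 shares 433 exonic bases with a gene on the opposite strand. The sum was 241 to 446 CPM in MBD2a, 311 to 315 CPM in MBD2t and 741 to 1460 CPM in MBD2aΔGR. All 7 markers of pluripotent cells, which are known to express Cdh1 and Epcam, rose in the KO, with sums of 22.6 to 168 CPM in WT and 312 to 992 CPM in the KO. These sums were 338 to 674 CPM in MBD2a and 541 to 686 CPM in MBD2t. They ranged from 57.7 to 368 CPM in MBD2aΔGR, the highest in s18, and from 26.0 to 308 CPM in MBD2aR181C, the highest in s20.
All 8 trophoblast markers, Krt7 of the epithelial list among them, rose as well, with sums of 27.0 to 58.5 CPM in WT and 633 to 851 CPM in the KO. The sums were 116 to 558 CPM in MBD2a, the highest in s15, and 22.7 to 48.9 CPM in MBD2aΔGR. The 4 surface ectoderm markers also rose but stayed low, with sums of 1.97 to 3.33 CPM in WT and 7.40 to 14.8 CPM in the KO. Of 6 neural crest markers, 1 (Sox10) rose and 4 fell. The sum of the 6 went from 242 to 458 CPM in WT to between 82.7 and 137 CPM in the KO. Of 8 mesenchyme markers 2 fell and of 7 endoderm markers 1 rose, and the others of both lists were not called. In MBD2a, 4 of the 7 endoderm markers rose against WT, as did 16.9% of all genes. Their sums were 785, 141 and 625 CPM in s13, s14 and s15, where WT had 175 to 256 CPM. No marker list had a gene at 0 in all libraries of a line, and the part of these cell types in the changes of the 10 genes was not tested.

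**Figure D5:**
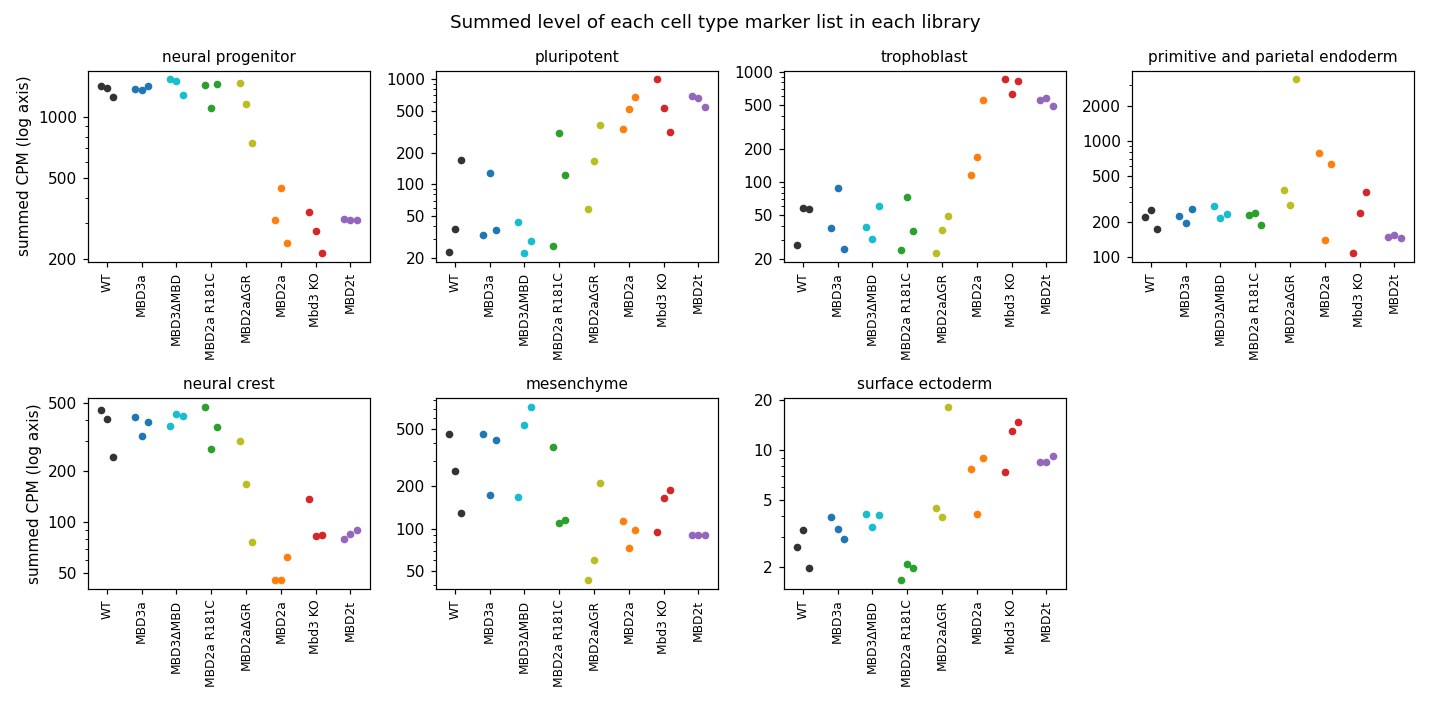
Summed CPM of each of 7 marker lists in the 24 libraries, on logarithmic axes that differ between panels. The neural progenitor sums of MBD2a, Mbd3 KO and MBD2t lie at 215 to 446 CPM below all other libraries, and library s18 of MBD2aΔGR lies at 3352 CPM in the endoderm panel.

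Likeness to Cdh1 and Cdh2 over the 24 libraries was measured as the root mean square difference of log2 CPM after centring each gene, among 12813 genes of at least 1 log2 CPM. The 5 genes most like Cdh1 were Dsg2 (0.25), a desmosomal cadherin that shares 330 exonic bases with a gene on the opposite strand, Irgm2 (0.26), an interferon-inducible GTPase, Ildr1 (0.28), a protein of tricellular junctions, Kdf1 (0.29), a regulator of keratinocyte differentiation, and Epcam (0.30). The median over all genes was 1.51. Those most like Cdh2 were Dach1 (0.23), a cofactor expressed in neural progenitors, Nefl (0.23), the light neurofilament, Ptprd (0.23), a neuronal receptor phosphatase, Cracd (0.28) and Hoxb7 (0.28), a HOX factor, with a median of 1.69 over all genes. Among the 10 genes, Zeb2 (0.57) and Zeb1 (0.58) were close to Cdh2, while Cdh1 lay 3.10 from it.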

How the data were processed

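RNA-seq counts of 24 NPC libraries were analysed, and the ChIP-seq samples of the study were not used here. The deposited values are the authors' counts of reads per gene, not normalized. The authors trimmed reads (Trim Galore 0.6.6), aligned them to NCBIM37 (mm9) with STAR, using GENCODE gene models, and counted reads per gene with QuasR. Libraries were poly(A) selected and directional, and the strand setting of the counting is not given in the sources used here. Columns carry a line and a library number (s01 to s24) and were assigned to lines by name.

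From the counts, genes were filtered by line with filterByExpr (16582 of 25400 left), scaled by TMM and tested with edgeR 4.0.16 (quasi-likelihood, R 4.3.3). The line was the only factor and all 24 libraries shared the fit. Standard errors were derived from each gene's fold change and F statistic. Log2 CPM had a prior count of 1. Lengths and positions are from the GENCODE annotation on mm9, where all 25400 identifiers were found. Permuting 3 against 3 libraries exactly, two-sided, gives no p under 0.1. The procedure was tested on simulated counts.

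The 10 genes and the lists were chosen with earlier results of these data known. Named besides the 10 genes are Mbd3 and Mbd2, up to 4 genes of a list with the largest called change in Mbd3 KO at a mean of at least 1 log2 CPM, and 5 genes most like Cdh1 and Cdh2. Genes named outside this rule (Tjp1, Tjp3, Ocln, Cgn, Lsr, Crb3, Sox10, Snai3 and Cdh15) were chosen after their values were seen. One gene that the rule names is not reported here. Alternatives were RLE, upper quartile and library size scaling, other filters, DESeq2 1.42.0, no fold threshold, glmTreat, fits of fewer lines and leaving out each library. The legacy quasi-likelihood test and list counts without a library were added after seeing the data.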

Additional observations from a re-analysis of the deposited data

How the results depend on the processing

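Of 336 recomputed counts of called genes, 321 stayed within 1.5 times the value reported, among them all those of Mbd3 KO, MBD2a and MBD2t against WT. With glmTreat the count was 0 for MBD2a against Mbd3 KO, 3 for MBD2a against MBD2aΔGR and 3 for neighbouring lines. It was 4 for MBD2a against MBD2aΔGR in a fit of those lines only, and 2 (Epcam and Grhl2) for MBD2aΔGR against MBD2aR181C with DESeq2. Leaving out each library in turn gave 0 to 1 for MBD2aΔGR against WT, 0 to 3 for MBD2a against Mbd3 KO, 0 to 1 for MBD2a against MBD2t (1 without s15) and 0 to 2 for MBD2aΔGR against MBD2aR181C (2 without s16, s17 or s20). Of 1738 recomputed log2 fold changes of single genes, 1666 kept their direction and side of the threshold, 57 lost the call, 11 gained it and 4 changed sign. The changes of sign came from leaving out a library: Snai1 ranged from -1.85 (without s18) to 2.03 in MBD2aΔGR against WT and from -1.25 to 2.64 (without s18) in MBD2a against MBD2aΔGR, and Cdh3, near 0, from -0.11 (without s01; -0.07 without s17) to 0.56 in MBD2aΔGR against WT. Library size scaling moved the median of all genes to 0.113, 0.122 and 0.14 (log2) in Mbd3 KO, MBD2t and MBD2a against WT. Snai2 in MBD2t against WT lost its call with RLE, upper quartile or library size scaling, with either other filter, with DESeq2 and with the legacy test. Genes near 1 CPM, such as Snai2, are limited by depth. No paired analysis was possible because the columns carry no replicate number.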
